A study of Homo sapiens with 5 samples.

Results

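The EGFR ligands amphiregulin (AREG), epigen (EPGN), transforming growth factor alpha (TGFA), betacellulin (BTC) and heparin-binding EGF-like growth factor (HBEGF) were followed in MDA-MB-468 cells before and during treatment with afatinib. The genes were picked by symbol, and all 5 of the 5 listed were found among the 12474 genes of the deposited matrix. Single cells were sequenced in 5 libraries with a 3′ Chromium kit. Untreated cells of day 0 (D0) made up 2 libraries, replicates 1 and 2, and cells kept in 250 nM afatinib for 3, 6 or 9 days (D3, D6, D9) made up 1 library each. MDA-MB-468 is a triple-negative breast cancer line with amplified EGFR. All cells, untreated ones included, came from a population that carried a lentiviral CloneTracker XP lineage barcode and had been selected with puromycin. The study's methods describe the freezing of treated cells and the thawing of frozen samples before capture. They do not say whether the untreated cells were frozen too. The D0 replicates came from 2 captures, and the labels do not say that they were separate cultures. The p-values below therefore rest on a spread between these libraries that may be technical. In the test of treated against untreated libraries the 3 treated days served as replicates, so its spread also holds the change between days. Wells were treated in triplicate per the study's methods, but each treated day has 1 library here.

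The EGFR ligands are made as membrane-bound precursors, and a metalloprotease, mostly ADAM17 or ADAM10, cuts the ectodomain loose so that it can bind receptors on the same or on neighbouring cells. AREG, EPGN and TGFA bind EGFR, whereas BTC and HBEGF also bind ERBB4. The receptor signals through RAS and ERK, and transcripts of several of the ligands are known to follow ERK activity, which makes the ligands and the receptor an autocrine loop. Afatinib binds covalently to the kinase domains of EGFR and ERBB2.

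The 4101 cells were split into 478 and 1063 untreated cells and 479, 942 and 1139 cells at D3, D6 and D9. Libraries held 14517579 (D3) to 28148379 (untreated D0 replicate 2) UMI counts, and the median cell held between 13862 UMIs at D6 and 45658.5 in untreated D0 replicate 1. A UMI marks a distinct captured transcript. Before deposit, however, the authors adjusted the counts with ComBat-seq for the D0 captures, so the values called UMIs here are not plain counts of molecules. Intervals said below to cover counting error treat the adjusted values as counts. The mitochondrially encoded share of counts was 7.25% and 7.80% without afatinib, and with it 17.2% (D3), 16% (D6) and 8.82% (D9). In all, 1 cell barcode was shared by 2 libraries. The epithelial markers EPCAM, KRT8, KRT18, KRT19 and CDH1 were found in every library at 37.7 CPM or more (CPM, counts scaled to the library size and its TMM factor), and the oestrogen receptor gene ESR1 did not exceed 0.324 CPM. The fibroblast, immune and endothelial markers PTPRC, CD3E, CD68, PECAM1, CDH5, COL3A1, DCN and LUM were not among the genes of the matrix, while COL1A1 stood at 2.22 to 7.67 CPM. Because the cells are all of 1 line, no cell type that lacks the ligands was there to give a background level of free RNA.

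On GRCh38 (GENCODE v44), EPGN (chromosome 4, 74308470 to 74316789, plus strand), AREG (chromosome 4, 74445136 to 74455005, plus strand) and BTC (chromosome 4, 74744759 to 74794523, minus strand) lie in 1 cluster that spans 486.1 kb. The gene of a further ligand, epiregulin (EREG, chromosome 4, 74365145 to 74388749, plus strand), stands between EPGN and AREG. HBEGF lies on chromosome 5 (140332843 to 140346603, minus strand) and TGFA on chromosome 2 (70447284 to 70554193, minus strand). The bases just before the transcription start of the 3 neighbouring plus-strand ligand genes are shown because AREG and EPGN had the largest changes of the ligands. Each line gives 100 bases of RefSeq sequence on GRCh38.p14, 5′ to 3′ and ending at the base before the start, with the TATA box letters TATAAA and the cAMP response element TGACGTCA in capitals. The windows are chr4:74445036-74445135 for AREG, chr4:74308370-74308469 for EPGN and chr4:74365045-74365144 for EREG.

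AREG: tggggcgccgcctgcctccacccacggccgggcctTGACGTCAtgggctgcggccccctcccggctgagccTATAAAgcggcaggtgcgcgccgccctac
EPGN: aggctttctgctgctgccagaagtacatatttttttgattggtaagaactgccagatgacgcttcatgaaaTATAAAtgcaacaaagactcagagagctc
EREG: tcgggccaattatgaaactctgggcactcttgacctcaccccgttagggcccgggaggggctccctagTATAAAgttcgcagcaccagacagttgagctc

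AREG, EPGN and EREG each held TATAAA, with its first base at position -29, -29 and -32 from the start, and 11.5% of 35116 RefSeq windows of 300 bases (250 before the start and 50 after) held it on either strand. AREG held the palindrome TGACGTCA at position -65, which 1.85% of windows held. The core of that element, TGACG, which overlaps it in AREG, was found in 24.6% of all windows. EPGN held it at -44 and, on the minus strand, at 17 after the start. It also stood at -125 in EREG and at -154 in 1 of 2 TGFA windows. The windows of BTC and HBEGF held none of these letters on either strand, and the AP-1 letters TGANTCA (7.71% of all windows) were absent from the windows of all 5 ligands and of EREG. These matches describe the letters in the windows and say nothing of which factor binds there.

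AREG had the largest fall of the ligands. Replicates 1 and 2 of untreated D0 had 36.7 and 28.2 CPM of AREG, and the treated libraries had 3.09 CPM at D3, 1.76 CPM at D6 and 1.23 CPM at D9. Both untreated libraries lay far above all 3 treated ones. The CPM values came from 793 and 752 AREG UMIs in the untreated libraries and from 48, 28 and 30 UMIs at D3, D6 and D9. Treated against untreated, AREG fell by 4.04 ± 0.319 on the log2 scale (SE, 3 treated against 2 untreated libraries), with an edgeR quasi-likelihood adjusted p (Benjamini-Hochberg over 12145 genes) of 0.00139. The 3 treated libraries are different days, so the SE here and below for this comparison holds the change between days. Only 23 of the 12145 genes tested had a lower log2 fold change.

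EPGN, a ligand of low affinity for EGFR, fell as well from a low level. EPGN had 2.31 and 2.10 CPM in the untreated libraries, but 0.257 CPM at D3, 0.314 CPM at D6 and 0.163 CPM at D9, so the groups did not overlap. Its UMIs numbered 50 and 56 against 4, 5 and 4. The log2 fold change was -3.20 ± 0.405 (SE, edgeR adjusted p = 0.00337), and 47 genes lay lower. The 106 untreated and 13 treated UMIs gave a ratio of 9.45 with an exact interval of 5.30 to 18.3, which covers counting error only.

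BTC and HBEGF had smaller falls. BTC had 5.64 and 4.58 CPM untreated against 2.06 (D3), 3.33 (D6) and 2.37 CPM (D9), which gives a log2 fold change of -0.98 ± 0.266 (SE, edgeR adjusted p = 0.0349). HBEGF had 6.85 and 6.61 CPM untreated against 3.73, 4.53 and 4.41 CPM in the same order of days, which gives a log2 fold change of -0.67 ± 0.190 (SE, edgeR adjusted p = 0.0406). For both genes every treated library lay below both untreated ones, as it did for AREG, EPGN and TGFA. How many of all genes tested do so was not counted, so this lack of overlap singles out no ligand. The calls of BTC and HBEGF ended when certain libraries were left out. The edgeR adjusted p of BTC and HBEGF became 0.282 and 0.291 without untreated D0 replicate 1, 0.175 and 0.275 without replicate 2, and 0.0750 and 0.0844 without D3. Without D6 the HBEGF value was 0.0671. The 2 calls also ended in thinned cells (0.115 and 0.397) and with a linear trend over days (0.230 and 0.311).

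TGFA, a ligand that keeps EGFR recycling to the surface, did not pass the test. TGFA had 9.72 and 10.3 CPM untreated against 8.04 (D3), 8.42 (D6) and 5.93 CPM (D9). The treated libraries lay below the untreated ones without overlap, but the log2 fold change of -0.43 ± 0.197 (SE) had an edgeR adjusted p of 0.148 and a 95% interval from -0.89 to 0.03. Among cells under 10% mitochondrial counts (379 and 860 untreated cells, and 85, 188 and 857 treated cells by day) the log2 fold change was -0.76 (edgeR adjusted p = 0.0309).

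In all, 4 of the 5 ligands were called lower and the median log2 fold change of the 5 was -0.98. Of all genes tested in this comparison, 10.1% were called lower and 13.1% higher, and the median log2 fold change was 0.05. The 95% intervals of AREG (-4.78 to -3.30) and EPGN (-4.13 to -2.26) lay wholly below those of BTC (-1.60 to -0.37), HBEGF (-1.11 to -0.23) and TGFA, though the differences between genes were not tested. Without untreated D0 replicate 1, untreated D0 replicate 2 or D3 in turn, 2 ligands kept a call, AREG and EPGN. AREG had an edgeR adjusted p of 0.0125 and EPGN of 0.0432 without untreated D0 replicate 1, and 0.0115 and 0.0451 without untreated D0 replicate 2.

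**Figure D1:**
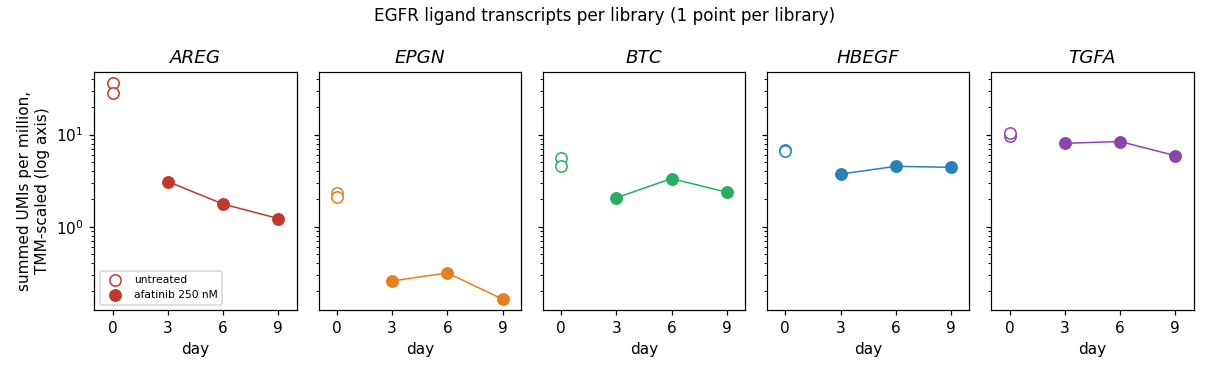
Summed counts in CPM (TMM-scaled, log axis) of each EGFR ligand against the day, 1 point per library, open for untreated and filled for 250 nM afatinib. AREG starts at 36.7 and 28.2 and ends at 1.23 CPM, EPGN starts at 2.31 and 2.10 and ends at 0.163 CPM, while TGFA stays between 5.93 and 10.3 CPM.

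The days were then compared with D0 one at a time. With 1 library per treated day the spread came from the D0 libraries alone (1 residual degree of freedom). The fit pooled that spread over genes with infinite total degrees of freedom, so its p-values treat the spread as known. A call here therefore needed a fold minimum, a log2 change of 1 or more up or down, beside an adjusted p under 0.05. In order of days, the log2 fold change of AREG was -3.39 ± 0.195, -4.20 ± 0.217 and -4.72 ± 0.211 (SE), and that of EPGN was -3.07 ± 0.477, -2.78 ± 0.452 and -3.71 ± 0.455. Both genes were called lower on each day. BTC was called lower at D3 (-1.30 ± 0.246) and at D9 (-1.10 ± 0.216) and was not called at D6, where its log2 fold change was -0.61 ± 0.221. HBEGF, at -0.85, -0.57 and -0.61, and TGFA, at -0.31, -0.25 and -0.76, stayed under the fold minimum on all 3 days. Thus 3 ligands were called lower at D3, 2 at D6 and 3 on the last day. Among all genes tested, 4.13% were called lower and 6.29% higher at D3, 5.71% and 6.74% at D6, and 7.21% and 5.07% at D9.

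**Figure D2:**
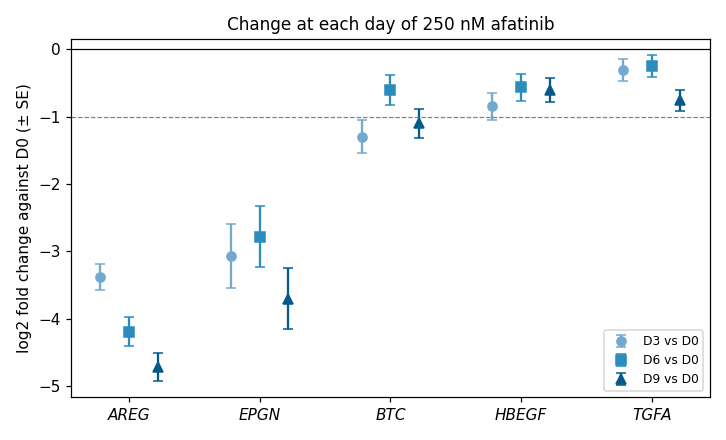
Log2 fold change of each EGFR ligand at D3, D6 and D9 against D0 (points) with the standard error of the fit (bars); the dashed line marks the fold minimum of a call. AREG goes from -3.39 at D3 to -4.72 at D9, and HBEGF and TGFA lie above the line on all 3 days.

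The D9 library had less AREG than the D3 library, with a log2 fold change of -1.33 ± 0.326 (SE, edgeR adjusted p = 0.000265). This sets 1 library against 1 library, and the SE and p come from the spread between the D0 captures, so they hold no measure of the variation between treated cultures. At D3, 2 cells held 8 and 7 of the 48 AREG UMIs. In this contrast 4.2% of genes were called lower and 0.98% higher. The AREG level at D9 was 0.396 of that at D3 (30 against 48 UMIs, exact interval 0.242 to 0.638, counting error only). D6 lay at 0.570 of D3 (0.344 to 0.926), and D9 at 0.695 of D6 with an interval of 0.401 to 1.21 that includes equal levels. Mitochondrial transcripts took 17.2% of counts at D3 and 8.82% at D9, and among cells under 10% mitochondrial counts, which were 85 of 479 at D3 and 857 of 1139 at D9, the D9 over D3 change was -1.65 (edgeR adjusted p = 0.00330). In cells thinned to 5000 UMIs it was -1.42 with an edgeR adjusted p of 0.209, from 6 UMIs at D3 and 5 at D9.

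The other ligands had no call between D3 and D9. HBEGF at D9 was 1.18 times its D3 level (0.850 to 1.65), BTC 1.15 times (0.734 to 1.83) and TGFA 0.735 times (0.575 to 0.941). For BTC the level at D6 was 1.62 times that at D3 (1.02 to 2.59). EPGN, with 4 or 5 UMIs per treated library, gave an interval of 0.118 to 3.4 for D9 over D3, so a change between treated days was not detectable at this depth.

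Depth differed between libraries, so the share of cells with at least 1 UMI was read after every cell had been thinned to 5000 UMIs at random, which lost 0 cells. The share of untreated cells with AREG was 9.21% (exact 95% interval 6.77 to 12.2) and 8.47% (6.86 to 10.3). Treated cells had 0.626% (D3, 0.129 to 1.82), 0.849% (D6, 0.367 to 1.67) and 0.439% (D9, 0.143 to 1.02). The intervals of the untreated libraries lay wholly above those of the treated ones. The mean share was 8.84% untreated against 0.638% treated (exact permutation test, two-sided, p = 0.2, the smallest that 2 against 3 libraries can give). In cells that were not thinned, the mean shares of cells with an AREG UMI were 28.8% and 3.30%.

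After thinning, the share with BTC was 2.93% and 2.54% untreated against 1.04%, 2.12% and 0.878% treated, in order of days, with no overlap (exact permutation p = 0.2). For HBEGF it was 3.77% and 2.35% untreated against 2.09%, 2.02% and 2.63% treated, so that its groups overlapped (exact permutation p = 0.4). For TGFA it was 5.02% and 4.05% untreated against 4.80%, 4.56% and 4.57% treated (exact permutation p = 0.8). By share of cells, TGFA therefore had treated values within the range of the untreated ones. EPGN was found in 4 of 478 and 7 of 1063 untreated cells and in 1 of 479, 2 of 942 and 0 of 1139 cells at D3, D6 and D9, the last of which allows a share of cells with a UMI at this thinned depth of up to 0.263% (3 counts of the total) or 0.323% (exact 95% bound). At their own depth 4 of the 1139 D9 cells held an EPGN UMI.

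A single draw of so few UMIs is noisy, so the mean share over all possible thinnings was added after the draw had been seen. For AREG it was 8.74% and 8.58% untreated against 1.20% (D3), 0.795% (D6) and 0.610% (D9). BTC stood at 2.53% and 2.05% untreated against 0.827%, 1.52% and 1.19% in the same order of days. EPGN stood at 1.07% and 0.865% untreated against 0.30%, 0.257% and 0.0682%. For HBEGF it was 3.15% and 3.00% against 1.64%, 2.13% and 2.17%, so that the overlap of the single draw was gone. For TGFA it was 4.88% and 4.67% untreated and 4.83%, 4.88% and 3.20% under treatment, within 1 percentage point of each other except at D9.

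**Figure D3:**
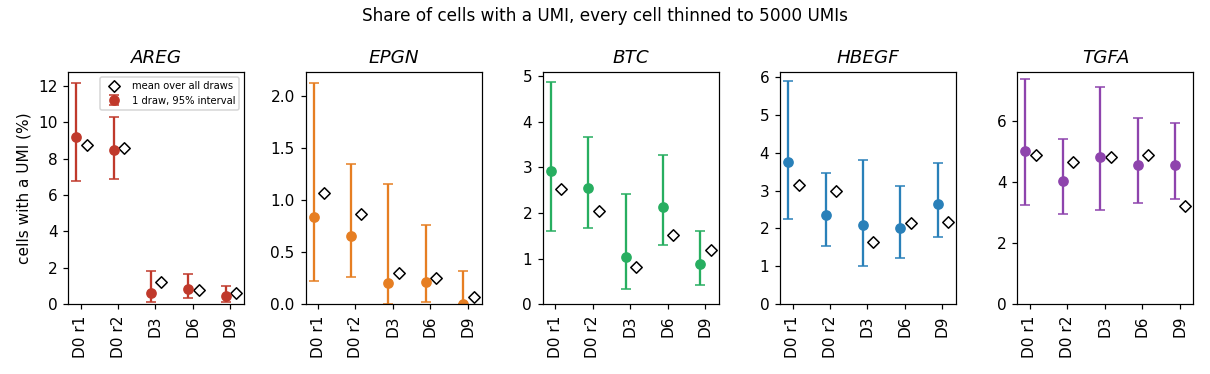
Share of cells with at least 1 UMI of each EGFR ligand in each library after thinning every cell to 5000 UMIs. Filled points with bars are 1 draw with its exact binomial 95% interval and open diamonds are the mean over all draws; in the single draw AREG drops from 9.21% and 8.47% to under 1% and TGFA stays between 4.05% and 5.02%, while the mean over all draws puts TGFA at 3.20% at D9.

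AREG transcripts were unevenly spread over untreated cells. At their own depth, 162 of 478 cells of untreated D0 replicate 1 and 252 of 1063 of replicate 2 held an AREG UMI, and 37 and 34 cells held 6 or more. The richest cells held 118 and 32 UMIs, and the top 5% of cells carried 62.3% and 56.3% of all AREG UMIs. In the same libraries that share was 54.1% and 50.6% for HBEGF, 47.5% and 62.3% for BTC, and 29.0% and 44.5% for TGFA. EPGN, with few UMIs, had 74% and 100%, so the share of the top cells does not set AREG apart. Among treated cells 23, 24 and 29 held an AREG UMI at D3, D6 and D9, with at most 8, 3 and 2 UMIs in 1 cell. At D9, 28 of the 29 positive cells held exactly 1 UMI, a level at which expression and free RNA cannot be told apart here.

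The other ligands had few cells above 1 UMI. TGFA reached at most 4 UMIs per cell, BTC 4 and EPGN 5, and HBEGF reached 6 or more UMIs in 1 cell of each untreated library. Counts of exactly 2 had gaps. Untreated D0 replicate 2 had no cell at exactly 2 UMIs for AREG, although 137 cells held 1 and 52 held 3, and none at 2 for TGFA, BTC or EPGN. For HBEGF the value 2 was missing from the other 4 libraries and was held by 13 cells of untreated D0 replicate 2. The deposited counts had been adjusted with ComBat-seq, and its part in these gaps was not tested. With each cell capped at 1 UMI, a setting added after this was seen, AREG was at -2.88 (edgeR adjusted p = 2.84e-15) and EPGN at -3.12 (5.13e-07). In the same fit BTC was at -1.01 (0.0481), HBEGF at -0.74 (0.139) and TGFA at -0.42 (0.338). The libraries are those of the uncapped fit, so the smaller p-values of AREG and EPGN rest on no added replicates. A capped sum also depends on cell depth, which differed between libraries.

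**Figure D4:**
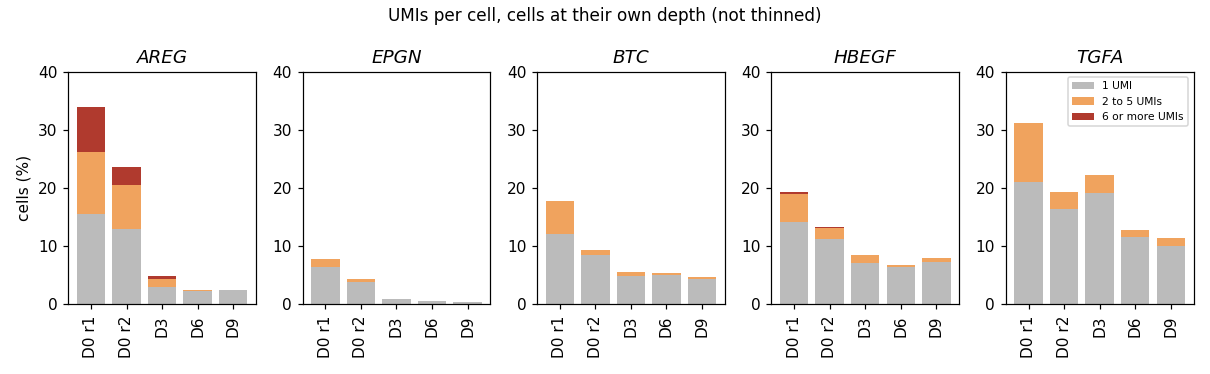
Percent of cells with 1, with 2 to 5 and with 6 or more UMIs of each EGFR ligand in each library, at the cells' own depth. Cells with 6 or more AREG UMIs number 37 and 34 in the untreated libraries, and 2 at D3.

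The make-up of the ligand transcripts changed with the fall of AREG. A 3′ count takes 1 tag per captured molecule, so UMIs of different genes were added without a length correction. In thinned cells AREG gave 52.3% (exact 95% interval 43.4 to 61.0) and 57.4% (50.9 to 63.7) of all UMIs of the 5 ligands in the untreated libraries, but 13% at D3, 9.68% at D6 and 5.05% at D9. TGFA gave 18.2% and 18.0% untreated, and 50% (34.9 to 65.1), 46.2% (35.8 to 56.9) and 54.5% (44.2 to 64.6) under treatment, so that TGFA took the first place. HBEGF went from 14.4% and 10.2% to 23.9%, 20.4% and 30.3% of the pool. These are shares of a sum that shrank, and neither gene had a higher CPM under treatment. They rest on the single draw, with 46, 93 and 99 ligand UMIs at D3, D6 and D9. That draw ran high for TGFA at D9, where 4.57% of cells held a UMI against 3.20% over all thinnings. Without thinning the D9 library held 145 TGFA, 108 HBEGF, 58 BTC, 30 AREG and 4 EPGN UMIs, so TGFA still came first. Untreated cells with at least 1 of the 5 ligands made up 19.0% and 17.1%, and treated ones 8.56%, 9.45% and 8.34%.

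Different ligands were seldom found in the same thinned cell. At least 2 ligands were found in 12 of 478 and 10 of 1063 untreated cells and in 1, 3 and 2 cells at D3, D6 and D9. AREG and HBEGF were found together in 5 cells of untreated D0 replicate 1, where the product of their shares gives 1.66, but in 2 cells of replicate 2, where it gives 2.12. For AREG and TGFA the counts were 2 and 1, against 2.21 and 3.64. Such small counts gave no direction.

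Of the other genes around the cluster, 1 was called higher and 0 lower. Of all genes tested, 13.1% were called higher and 10.1% lower. The counts are near those shares and are no result about the neighbours. Within 1 Mb of the cluster's ends the matrix held 8 further genes, all of them tested, a window set with the ligand values known. CXCL3, a neutrophil chemokine, rose from 1.48 and 1.43 CPM to 5.15, 4.09 and 3.39 CPM (log2 fold change 1.52 ± 0.283, edgeR adjusted p = 0.0109, but 0.114 and 0.132 without untreated D0 replicates 1 and 2), and the other 7 did not pass the test. CXCL2 was at 1.77 ± 0.565 (0.0571) and CXCL8 at -0.82 ± 0.739 (0.449). MTHFD2L, a mitochondrial folate enzyme and the nearest of these genes upstream of EPGN, was at -0.19 ± 0.210 (0.551). On the BTC side RCHY1, THAP6, G3BP2 and USO1 lay between -0.37 and -0.09. EREG, in the midst of the ligands, had too few UMIs to be tested, with 12 and 9 untreated and 2, 1 and 3 in the treated libraries by day, a ratio of untreated over treated of 4.06 (exact interval 1.58 to 12.3, counting error only).

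**Figure D5:**
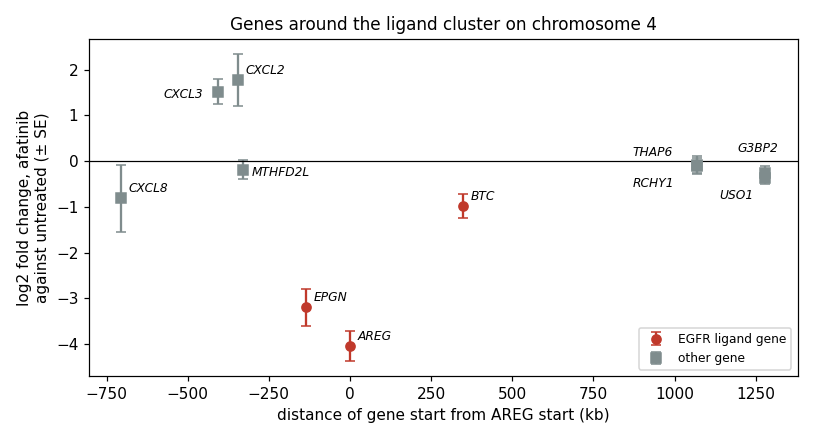
Log2 fold change of afatinib against untreated (points, with the standard error of the fit) for the tested genes within 1 Mb of the ligand cluster on chromosome 4, against the distance of each gene's start from that of AREG. AREG (-4.04), EPGN (-3.20) and BTC (-0.98) lie low, and CXCL3 (1.52) lies high.

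The genes that act with the ligands were read in the same comparison, in which 10.1% of all genes were called lower and 13.1% higher. EGFR itself had 887 and 921 CPM untreated against 884 (D3), 826 (D6) and 564 CPM (D9) (-0.25 ± 0.239, edgeR adjusted p = 0.471), and EGFR UMIs were found in 91.7% to 96.7% of thinned cells of each library. ERBB2 and ERBB3, which pair with EGFR, were called higher (0.85 and 0.66), and ERBB4, the second receptor of BTC and HBEGF, did not exceed 0.772 CPM and was not tested. Of 13 shedding and trafficking genes, 2 were higher and 1 was lower, with a median of -0.07, which is near the shares of all genes and no result about the list. The higher ones were the sheddase ADAM10 (0.62, from 17.9 and 19.3 to 29.5, 31.2 and 24.9 CPM) and RHBDF1 (0.65), which helps ADAM17 mature. The lower one was the metalloprotease inhibitor TIMP3 (-1.29, from 48.3 and 54.5 to 20.8, 25.4 and 17.0 CPM), and ADAM17 was at 0.32 (edgeR adjusted p = 0.184). Of 13 genes of receptor inhibition and turnover, 2 were called, the ubiquitin ligase CBLC (-0.86) and SOCS5 (-0.66), both lower, with a median of -0.02, again near the share of all genes.

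The ERK output and feedback list, which includes genes that EGFR signalling induces as it does several ligands, had 10 of 17 tested genes lower and 1 higher, with a median of -0.86. FOSL1, an AP-1 factor, had the largest of these falls (-3.10), followed by DUSP5 (-1.57) and DUSP4 (-1.30), which dephosphorylate ERK, and by SPRY2 (-1.18), which inhibits the pathway in feedback, while SPRED1 was higher (0.46). Of 12 AP-1 and CREB factors, 4 were higher (FOSB 1.61, FOS 1.22, JUN 0.86 and ATF2 0.74) and FOSL1 was lower, with a median of 0.35. Of the 22 genes called in the receptor, shedding, turnover, ERK and AP-1 lists, 3 (FOSB, FOSL1 and TIMP3) kept their call without untreated D0 replicate 1 and 2 (FOSB and FOSL1) without untreated D0 replicate 2, while 16 kept it without D3, 16 without D6 and 22 without D9.

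By the distance between log2(CPM + 1) values centred on the untreated mean, the genes most like AREG over the 5 libraries, among 8599 compared, were the carbonic anhydrase CA2 (distance 0.46), the WNT inhibitor DKK1 (0.58) and the kallikrein KLK6 (0.75). CA2 had 29.9 and 30.2 CPM untreated against 3.22, 2.20 and 1.31 CPM treated, and DKK1 had 27.1 and 20.8 against 2.51, 0.440 and 0.858 CPM. For BTC the nearest were RPL36AL (0.19), SGK1 (0.24) and RBX1 (0.25), for HBEGF RPA3, DBI and RTL8C (0.06 each), and for TGFA MCU (0.07), KAT14 (0.08) and PRR11 (0.09). For EPGN they were CLDN8 (0.09), IDS (0.20) and LGALS1 (0.22), at a level where the added 1 shrinks the change of EPGN. Small changes leave many genes near each other, so short distances single out no gene there. The added 1 also shrinks the changes of AREG, at 1.23 CPM at D9, and of BTC, at 2.06 CPM at D3, so it has a part in their nearest genes too.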

How the data were processed

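Single-cell 3′ RNA sequencing of 5 MDA-MB-468 libraries was used. The submitters' processing notes name Cell Ranger 6.1.2 and GRCh38. Before deposit the authors filtered cells on UMIs, mitochondrial share and likely doublets, ran ComBat-seq for the D0 captures and dropped weakly expressed genes. The deposited values are therefore expected counts, that is, adjusted UMI counts per gene and cell without depth scaling. Each was already whole. Cell names, gene identifiers and symbols were deposited as other columns. The count test had been chosen for plain counts.

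Cells were assigned to libraries by the prefix of their name. Counts were summed per library (14517579 to 28148379) and tested with edgeR 4.0.16 (quasi-likelihood, TMM, filterByExpr, 12145 genes), treated against untreated, where the 3 days serve as replicates (3 residual degrees of freedom), and by day. Calls needed a Benjamini-Hochberg adjusted p under 0.05, and by day the fold minimum of 1 on the log2 scale. Pooling of the spread over genes gave 7.79 total degrees of freedom in the fit of treated against untreated and infinitely many in the day fit. The day fit assumes that a treated library varies like the D0 libraries, whose spread the adjustment may have narrowed, so its p-values may be too small. The fit of treated against untreated uses the same D0 libraries, so its p-values may be too small as well. Shares of cells were read after seeded thinning to 5000 UMIs, with exact binomial 95% intervals that cover counting error only, and compared with exact permutation tests. DESeq2 1.42.0, limma 3.58.1, other filters, cell subsets and leaving out each library were alternatives. Named were all members, up to 4 called genes per list by size of change, the ERBB receptors and the 3 nearest genes by distance. Beside this rule SPRED1, ATF2 and ADAM17 were named, as were the genes around the cluster. The members, lists and tests were chosen with earlier results of these data known, so nothing here is independent of them. Promoter windows came from RefSeq (GRCh38.p14, 5 of 5 members matched) and positions from GENCODE v44. The planned search of the ligand proteins was not run.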

Additional observations from a re-analysis of the deposited data

Results flagged for a closer look

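The D9 library had less AREG than the D3 library, with a log2 fold change of -1.33. It was picked out because the contrast of the 2 libraries was itself called (edgeR adjusted p = 0.000265). Each day has 1 library and the spread comes from the D0 captures alone, so this compares these libraries and does not show a difference between days. The call was lost in thinned cells (edgeR adjusted p = 0.209).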

How the results depend on the processing

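AREG was lower and called in all 14 alternatives of afatinib against untreated (highest adjusted p 0.0146), and EPGN in 12 of 13, with the exception of the share of thinned cells with a UMI (limma adjusted p = 0.210). EPGN was not tested in summed thinned cells. BTC kept its call in 8 of 14 and HBEGF in 6 of 14, both with the same sign throughout. TGFA was negative in 13 of 14, called in 1 and reversed in the share of thinned cells (0.0419, log2 odds, limma adjusted p = 0.933). Leaving out 1 library gave 2 to 4 ligands called lower, 139 to 3313 genes lower and 100 to 3504 higher. The ligands called lower numbered 1 in thinned cells, 2 with the linear trend and 1 by share of thinned cells. Genes higher were 642 in thinned cells, 153 with the trend and 525 with cells capped at 1 UMI, and genes lower were 721 in thinned cells, 448 with the trend and 598 by share.

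At D3 in thinned cells 777 genes were lower, and among cells under 10% mitochondrial counts 328 were lower and 497 higher, with 530 higher at D6. At D6, 1 ligand was called in thinned cells. For D9 over D3 in thinned cells edgeR called 0 of 4 ligands (0 at an unadjusted p under 0.05) and 467 genes higher, and TGFA (0.0389) and BTC (-0.19) reversed. Without thinning, the treated minus untreated share of cells (percentage points) was -25.5 for AREG, -8.37 for BTC, -5.46 for EPGN, -8.47 for HBEGF and -9.74 for TGFA. It was -5.56 for AREG and -0.77 for TGFA at 3000 UMIs, and -0.76 for EPGN over all thinnings. The causes of these shifts were not tested. No paired analysis was possible because treated groups have 1 library each. EPGN and BTC are limited by their few UMIs.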
